A study of Mus musculus with 10 samples.

Results

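Cells remove reactive oxygen species through enzymes that work in series, and 10 genes for such enzymes, of 18539 genes named on the array, are described here in the mouse hemibrain. They were chosen as the superoxide dismutases Sod1, Sod2 and Sod3, the peroxide-removing enzymes Cat, Gpx1, Gpx4, Prdx1 and Prdx2, and the inducible enzymes Nqo1 and Hmox1, and their probes were taken by the RefSeq accession on the array. All 10 genes were found, on 12 probes, with 3 probes for Prdx2 and 1 for each of the others.

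The deposited data are 10 dual dye arrays, 1 for each of 10 male C57BL/6J mice. The mice were single-housed from 3 weeks of age on a fish oil diet enriched in n-3 PUFA (FD) or a standard lab diet (SD), for 20 weeks, and were 5 months old at the end. RNA of the left hemibrain was labeled with Cy-5, and each probe gives the log2 of its Cy-5 signal over the Cy-3 signal of a second RNA. For this second RNA the methods name a commercial reference, whereas the labels name pooled hemibrain of SD-fed C57BL/6J mice and, in the same entry, a cell line. The diet of the mice was not settled either. The labels give FD for the Cy-5 RNA of all 10 arrays, while their descriptions call the same samples controls. The methods count 4 arrays of FD and 3 of SD, fewer than the 10 deposited. No array was therefore assigned to a diet, FD was not compared with SD, and values are given by array or as the lowest, the median and the highest of the arrays. The arrays are named by the animal, C10-413 to C10-437. Slide 2 held C10-415, C10-416, C10-417 and C10-423, slide 3 held C10-424, C10-425, C10-434 and C10-435, and C10-413 and C10-437 were alone on slides 1 and 4.

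Superoxide is made as a by-product of mitochondrial respiration and by NADPH oxidases, and superoxide dismutases turn it into hydrogen peroxide. Catalase, the glutathione peroxidases and the peroxiredoxins then reduce the peroxide, the last 2 families at the expense of glutathione and thioredoxin. The brain uses much oxygen and is rich in polyunsaturated lipids, and the transcription factor Nrf2 raises genes such as Nqo1, Hmox1 and Prdx1 under oxidative stress through the antioxidant response element, a short DNA motif.

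The core of this element was looked for in the promoters of the members, as TGACNNNGC on both strands, in windows of 300 bases from 250 bases before to 50 bases after the start of each gene (RefSeq, build GRCm38.p6). Windows were on hand for 8 of the 10 genes (Sod1, Sod2, Cat, Gpx1, Gpx4, Prdx1, Prdx2 and Nqo1). The core was present in the windows of 2 of them, Prdx1 and Sod1, and in 12.4% of all 32851 windows. These 2 promoters are shown because their genes lie far apart in the values that follow, Prdx1 among the lowest ratios and Sod1 among the highest. The capitals mark the 9 bases of the core, which lie on the minus strand in both, with 30 bases on either side.
Prdx1 promoter, chr4:116685436-116685504, plus strand: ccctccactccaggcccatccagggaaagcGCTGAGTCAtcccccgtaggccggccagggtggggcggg
Sod1 promoter, chr16:90220676-90220744, plus strand: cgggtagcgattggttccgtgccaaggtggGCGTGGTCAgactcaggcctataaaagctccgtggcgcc
In Prdx1 the core lies 133 to 125 bases before the start, and in Sod1 56 to 48 bases before it. The bases in Prdx1 also hold TGANTCA, the motif of AP-1 factors, which was present in 7.81% of all windows and in no other window of the members. A match describes the letters in the window and not the binding of a factor.

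The nature of both RNAs was examined first, through marker genes of cell types. The 5 oligodendrocyte genes were all at least 2-fold higher in Cy-5 on every array, with medians from 3.26 for Mobp to 5.50 for Mog on the log2 scale, the last a lower limit because the Cy-3 signal of Mog was not well above background on any array. The same held for 6 of the 7 neuron genes with a value on every array (Nefl highest at 8.34, Syn1 lowest at -0.27), for 6 of 7 astrocyte genes (Slc1a2 10.05, Gja1 0.63) and for 4 of 7 microglia genes (P2ry12 6.12, a lower limit for the same reason, and Tmem119 0.12). Markers of dividing cells ran the other way, as all 7 were at least 2-fold lower in Cy-5 on every array, from -3.22 for Cdk1 to -7.83 for Aurkb, whose Cy-5 signal was not well above background on any array. The Cy-5 RNA thus carried the markers of the labeled tissue. The Cy-3 RNA went against its label as pooled hemibrain, because a second brain RNA would give ratios near 0 for these lists, and it is called the Cy-3 RNA throughout. A low ratio can come from a low level in the hemibrain or a high level in the Cy-3 RNA, and in bulk tissue fewer cells of a type and less RNA per cell cannot be told apart.

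Other cells that a hemibrain holds were marked less evenly. Of the endothelial genes with a value on every array, 3 of 5 were at least 2-fold higher in Cy-5 throughout (Cldn5 5.18, Pecam1 -0.22), as were 2 of 4 mural and smooth muscle genes (Rgs5 4.60), while another 2 of these were at least 2-fold lower (Tagln -3.18). Choroid plexus genes were higher throughout in 2 of 4 (Ttr 6.46, Folr1 0.42) and red blood cell genes in 2 of 4 (Alas2 4.15, Epb42 0.09). Of the 6 liver genes only Ttr, which the choroid plexus also makes, was higher throughout, and Fgb (-0.43) was not well above background in either dye on any array. The Cy-3 signal was not well above background on 1 array for Slc1a2, Rgs5 and Ttr and on 2 for Alas2, and the Cy-5 signal on 1 array for Pecam1.

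**Figure D1:**
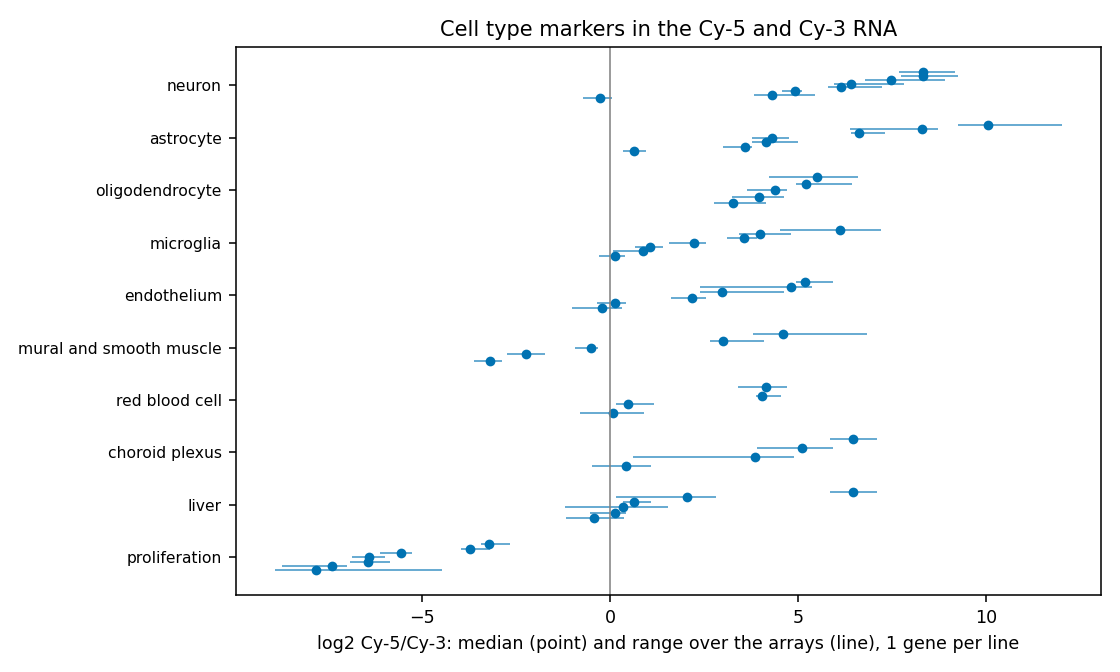
Log2 Cy-5/Cy-3 of marker genes by cell type, with the median (point) and the range (line) over the arrays for each gene. Oligodendrocyte genes lie between medians of 3.26 and 5.50, and genes of dividing cells between -7.83 and -3.22.

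The array of C10-434 was dim in Cy-5, where its median background-subtracted signal of 43 was the lowest of all arrays. In Cy-3 this median, 161, was the highest. The processed signals, which give the ratios, were nonetheless lowest on C10-434 in both dyes for every member probe with a value there. For Sod1 the processed Cy-3 signal was 67099 on C10-434 and 100938 on the next lowest array, C10-435. Probes well above background made up 49.8% of all probes in Cy-5 on that array against 68.2% to 76.9% on the others, and 61.9% in Cy-3 against 70.3% to 79.1%. The 12 member probes were well above background in both dyes on all 10 arrays, with the exception of Sod3.

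The 10 members were divided around equality, with medians above 0 for 5 genes (Sod1, Sod2, Sod3, Gpx4 and Prdx2) and below 0 for 5, although the sign of Cat depends on the normalization and that of Prdx2 on the probe. No member was at least 2-fold higher in Cy-5 on every array, among the 8 members with a value on all 10, and 15.7% of the 17659 genes measured on all arrays were. At least 2-fold lower on every array were 2 of these 8 members, Nqo1 and Hmox1, against 16.1% of all genes, and with so few members neither count is set apart from these shares. With normexp background correction followed by loess, Nqo1 dropped out, and the share of all genes that were lower on every array fell to 2.53%. Prdx1 lacks a value on C10-424, where its spot carried an outlier flag, and was at least 2-fold lower on the 9 arrays left.

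**Figure D2:**
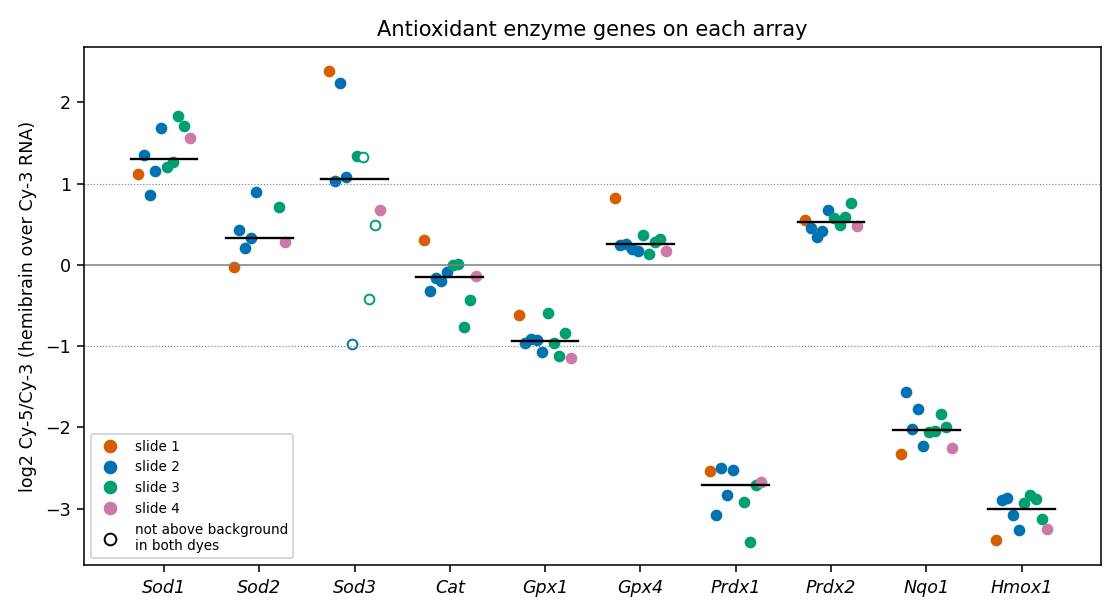
Log2 Cy-5/Cy-3 of the brightest probe of each gene, 1 point per array, colored by slide, with the median as a bar and dotted lines at 2-fold. Hmox1, Prdx1 and Nqo1 lie below -1 on every array shown, and Sod1 lies between 0.86 and 1.83.

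Sod1 encodes the copper-zinc enzyme of the cytosol, and its log2 ratio was 0.86 at the lowest (C10-416), 1.31 at the median and 1.83 at the highest (C10-434), that is 2.47-fold more Cy-5 than Cy-3 at the median. The ratio was above 0 on all 10 arrays and at least 1 on 9 of them. This median lay above those of 81.1% of all genes. The highest arrays after C10-434 were C10-435 (1.70), C10-423 (1.68) and C10-437 (1.56), from 3 different slides. Its range of 0.98 was 1.61 with normexp and loess.

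Sod2, the manganese enzyme of mitochondria, was closer to equality. Its spot carried an outlier flag on C10-424, C10-425 and C10-434, and on the 7 arrays left its ratio ran from -0.02 (C10-413) over a median of 0.33 to 0.90 (C10-423). With the flagged spots kept, the median over 10 arrays was 0.33 and the ends were the same. Sod1 exceeded Sod2 on each of the 7 arrays, by 0.65 to 1.28 on the log2 scale, so the order of these 2 ratios did not depend on the array.

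Sod3, the secreted enzyme of the extracellular matrix, was dim and is not placed in this order. Its signal was well above background in both dyes on 6 arrays, where the ratio was 0.67 at the lowest (C10-437), 1.21 at the median and 2.39 at the highest (C10-413). On the same 6 arrays the median of Sod1 was 1.18, and Sod1 had the higher ratio on 3 of them. On C10-423 (-0.97) it was not well above background in Cy-5, so this ratio is only an upper limit. On C10-425 (1.33) and C10-435 (0.50) it was not well above background in Cy-3, and these ratios are lower limits. On C10-434 (-0.43) it was above background in neither dye, and the value says nothing of a direction. Over the 6 arrays measured in both dyes the range was 1.71, against 3.36 with the limits taken as values and 0.90 with normexp and loess, where the median over all arrays fell from 1.05 to 0.076. The Cy-5 signal itself went from 20.0 on C10-434 to 418 on C10-413, and the Cy-3 signal from 26.9 to 159.

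**Figure D3:**
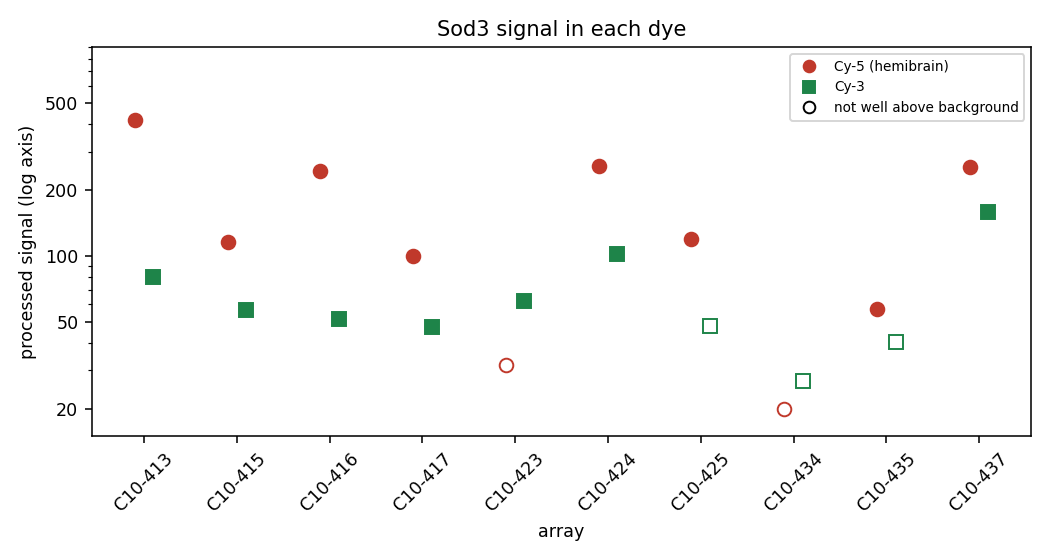
Processed Sod3 signal in Cy-5 and Cy-3 on each array, on a log axis, with open symbols where the spot was not well above background. The Cy-5 signal lies between 20.0 and 418, and 4 of the 10 arrays have an open symbol in at least 1 dye.

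The 5 peroxide-removing enzymes covered a wide span. Catalase (Cat), the peroxisomal enzyme that splits hydrogen peroxide, lay near equality, with a ratio of -0.76 at the lowest (C10-434), -0.14 at the median and 0.30 at the highest (C10-413). It was below 0 on 8 of 10 arrays, but its median turned to 0.060 with loess within each array, and it was also above 0 in the 2 alternatives that end in loess, at 0.0175 after normexp and 0.0735 after subtraction of the background with a floor and an offset, so no direction is given for it. Without C10-434 its range fell from 1.07 to 0.73.

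The glutathione peroxidases, with 1 probe each, differed in ratio on every array. Gpx1, the abundant cytosolic and mitochondrial form, was below 0 on all 10 arrays, from -1.14 (C10-437) over a median of -0.94 to -0.60 (C10-424), and reached 2-fold lower on 3 of them, C10-434 included. Its range of 0.55 was 1.025 with normexp and loess. Gpx4, which reduces peroxides of membrane lipids, was above 0 on all 10 arrays, from 0.13 (C10-425) over a median of 0.25 to 0.82 (C10-413), although it was above 0 on only 8 of them with normexp and loess, where its range was 1.97. The ratio of Gpx4 exceeded that of Gpx1 on all 10 arrays, by 0.96 to 1.44. Between 2 probes of Prdx2, described below, the gap was of similar size, 0.74 to 1.43. A difference between the genes therefore cannot be told apart from one between their probes. On C10-413 Gpx4 stood apart from the 9 others, which lay between 0.13 and 0.36, and without C10-413, a choice made after seeing the data, its range was 0.23 in place of 0.69.

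The peroxiredoxins were still further apart. Prdx1, a cytosolic enzyme and a target of Nrf2, was at -3.41 at the lowest (C10-434), -2.71 at the median and -2.50 at the highest (C10-416) over 9 arrays, which is 6.55-fold less Cy-5 than Cy-3 at the median. Only 6.46% of all genes had a lower median. Its range of 0.91 was 0.58 without C10-434. Prdx2, a cytosolic enzyme abundant in neurons and red blood cells, was above 0 on all 10 arrays by its brightest probe, from 0.35 (C10-416) over a median of 0.52 to 0.76 (C10-435), a range of 0.42 that was 1.27 with normexp and loess and 1.03 over the median of its 3 probes. By this probe its ratio exceeded that of Prdx1 on all 9 arrays, by 2.84 to 4.00 (C10-434).

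The probes of Prdx2 disagreed in sign. The brightest, A_51_P147207, is printed as 10 spots on each array, and the other 2, A_52_P893440 and A_52_P550034, as 1 spot each. A_52_P893440 was below 0 on all 10 arrays, from -0.95 to -0.31, and A_52_P550034 on 8 of 10, from -0.81 to 0.24. The 10-spot probe exceeded A_52_P893440 by 0.74 to 1.43 and A_52_P550034 by 0.18 to 1.36, on all 10 arrays in both cases. The gap from Prdx1 is larger than this disagreement, since even the lowest Prdx2 probe value, -0.95, lay above the highest Prdx1 value, -2.50, whereas the sign of the Prdx2 ratio depends on the probe. The probes of a gene can lie in different parts of its transcripts, and their positions were not analysed here.

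**Figure D4:**
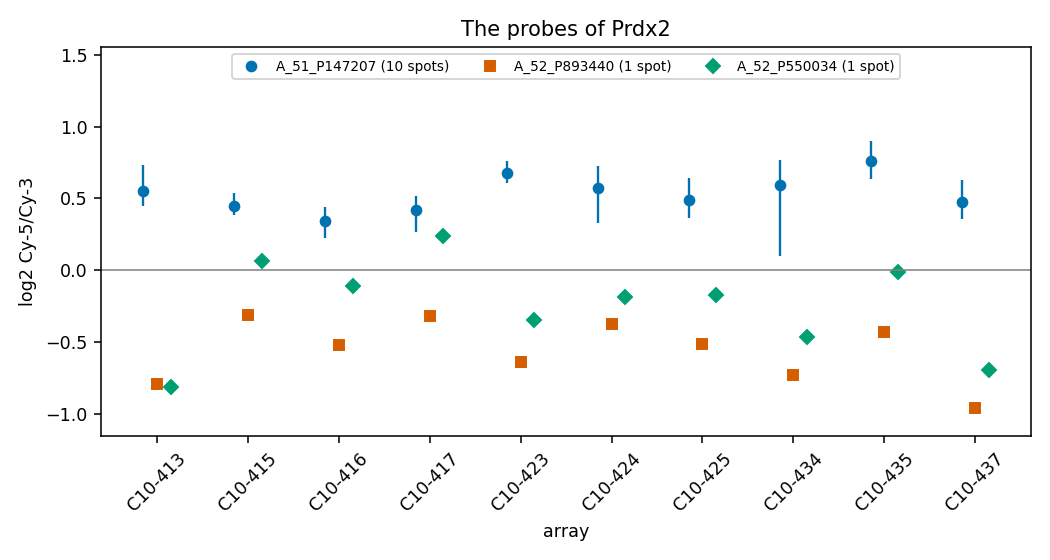
Log2 Cy-5/Cy-3 of the 3 Prdx2 probes on each array, with the lowest and highest of the spots used as a line for the probe with 10 spots. That probe lies above both others on all 10 arrays.

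The 10 spots also give the technical error of this probe. The SD of the spots within an array was 0.04 on C10-423 and 0.19 on C10-434 at the ends, and 0.10 pooled over the arrays. A mean of 10 spots then carries an SE of 0.03, which holds the error of the spots and not the spread between animals or arrays. Over all 245 probes with at least 5 spots the median of the pooled SD was 0.15, and the 5th and 95th percentiles were 0.08 and 0.56. The members with a single spot have no such measure of their own.

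Red blood cell genes are given beside Prdx2, since its protein is plentiful in these cells. Of 4 genes used, Hba-a1 and Alas2 were at least 2-fold higher in Cy-5 on every array, and Epb42 was not well above background in Cy-5 on any. The summed Cy-5 signal of the list, of which Hba-a1 made up 96.6% on the lowest array and 97.9% on the highest, was highest on C10-423 (136542) and C10-425 (99509) and lowest on C10-434 (15546). Prdx2 was at 0.68, 0.49 and 0.59 on these 3 arrays. The sum is a Cy-5 signal and not a ratio, and C10-434 had the lowest median Cy-5 signal of all arrays. As a log2 ratio, Hba-a1 was at 4.01, 4.56 and 4.53 on the same 3 arrays, an order that differs from that of the sum. The part of red blood cells in the Prdx2 ratio was not tested.

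The inducible enzymes had low ratios on every array, although their Cy-5 signals were well above background on all 10. Hmox1, the stress-induced haem oxygenase, had a ratio of -3.39 at the lowest (C10-413), -3.002 at the median and -2.83 at the highest (C10-425), 8.01-fold less Cy-5 than Cy-3 at the median. Nqo1, a quinone reductase and a standard readout of Nrf2, ran from -2.33 (C10-413) over a median of -2.03 to -1.57 (C10-415), 4.09-fold less at the median. Nqo1 exceeded Hmox1 on all 10 arrays, by 0.79 to 1.33. The ranges of 0.76 for Nqo1 and 0.55 for Hmox1 were 1.47 and 1.91 with normexp and loess, where the highest ratios were -0.30 and -1.28.

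Set in order of the median within the arrays, the members other than Sod3 ran Sod1, Prdx2, Sod2, Gpx4, Cat, Gpx1, Nqo1, Prdx1 and Hmox1. Sod1 exceeded Prdx2 on all 10 arrays, by 0.51 to 1.24 (C10-434). The place of Prdx2 holds for its brightest probe only, since over all its probes the median of -0.18 lay below that of Cat. From Gpx4 down to Prdx1 the order of the ratios held on every array. Gpx4 exceeded Cat, Cat exceeded Gpx1 and Gpx1 exceeded Nqo1 on all 10, and Nqo1 exceeded Prdx1 on all 9. Every member but Prdx2 has 1 probe of 1 spot, so these counts compare probes. Within 1 gene, the 10-spot probe of Prdx2 exceeded A_52_P893440 on all 10 arrays by 0.74 to 1.43. The median gaps were 0.40 for Gpx4 over Cat, 0.75 for Cat over Gpx1, 1.11 for Gpx1 over Nqo1 and 0.72 for Nqo1 over Prdx1. A gap of this size between genes cannot be told apart from one between probes. The neighbours between Prdx2 and Gpx4 did not separate, as Prdx2 exceeded Sod2 on 6 of 7, and Sod2 exceeded Gpx4 on 5 of 7. At the low end, Prdx1 exceeded Hmox1 on 6 of 9.

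The arrays themselves did not take part evenly in these ranges. Of the 12 member probes, C10-413 had the lowest value in 4 and the highest in 3, more than any other array. It was lowest for Sod2, Nqo1, Hmox1 and A_52_P550034 of Prdx2, and highest for Sod3, Cat and Gpx4. C10-434 and C10-416 followed with 3 such ends each. C10-413 was alone on its slide, so the animal and the slide cannot be told apart.

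Slides 2 and 3, with 4 arrays each, allowed a single test, between slides and not between diets. By limma with Benjamini-Hochberg adjustment, two-sided, 31 of 41042 probes differed between the slides at an adjusted p under 0.05 (0.0755%), 15 higher and 16 lower on slide 3. Among only bright probes, whose Cy-5 signal cleared the background on each of the 8 arrays, it was 71 of 20206, 13 higher and 58 lower, so the balance of directions depends on the probes tested, and it was 0 with normexp and loess and 1 with subtraction and loess. The count of 31 was 18 without C10-423, 2 without C10-415 and 0 without any 1 of the other 6 arrays. None of the 11 member probes that could be tested was among them, and none had an unadjusted p under 0.05 either, against 9.92% of all probes. Sod2 had only 1 value on slide 3 and was not tested. The smallest adjusted p of the members, by limma, was 0.85 for Prdx1, which was at -2.73 on slide 2 (mean of 4 arrays) and -3.01 on slide 3 (mean of 3), a difference of -0.28 with an SE of 0.24, or -0.09 without C10-434. Sod1 was at 1.26 and 1.503, a difference of 0.24 with an SE of 0.23, or 0.13 without C10-434. The arrays of the slides overlapped for all 11 probes. The slides hold different animals, so a slide and its animals cannot be told apart.

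The other genes of these pathways, 66 found of 67 in 8 lists, leaned towards the Cy-3 RNA. Of the 61 with a value on all arrays, 22 (36.1%) were at least 2-fold lower in Cy-5 on every array, against 16.1% of all genes, and 7 (11.5%) were at least 2-fold higher, against 15.7%. Their medians lay below 0 for 42 of 66 genes, with a middle value of -0.74, against 0.05 over all genes. With normexp and loess the lower and higher counts were 9 and 2, where 2.53% and 3.40% of all genes were called. None of the 66 differed between the slides by limma, with a smallest adjusted p of 0.49.

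**Figure D5:**
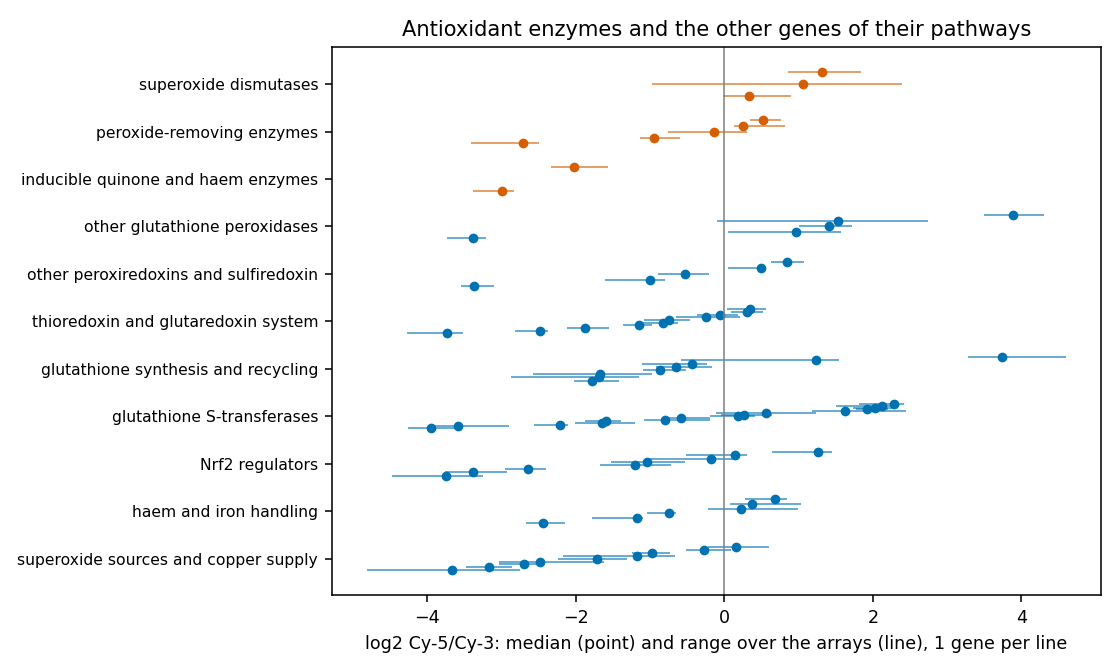
Log2 Cy-5/Cy-3 of the members (orange) and of the other genes of their pathways (blue), with the median (point) and the range over the arrays (line) of each gene. Gpx3 and Ggt7 lie highest, with medians of 3.88 and 3.74, and Gstm2 lowest, with -3.95.

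The enzymes that stand next to the members split within each family. Among the other glutathione peroxidases 2 of 5 were at least 2-fold higher on every array and 1 was lower. Gpx3, the secreted form, had a median of 3.88, with a Cy-3 signal that was dim on 3 arrays and not well above background there, while Gpx8 of the endoplasmic reticulum had a median of -3.39. Among the other peroxiredoxins and sulfiredoxin, Prdx4, the form of the endoplasmic reticulum, was lower throughout (median -3.37), as 1 of 5 genes, and Srxn1, the sulfiredoxin that restores overoxidised peroxiredoxins, was highest (0.84).

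The thioredoxin and glutathione systems that supply reducing power were mostly at or below equality, with middle values of the gene medians of -0.79 and -0.76. In the thioredoxin and glutaredoxin system 3 of the 7 genes with a value on every array were lower throughout and 0 were higher, with medians from -3.74 for Txnip, which binds and inhibits thioredoxin, to 0.35 for the mitochondrial glutaredoxin Glrx2. In glutathione synthesis and recycling 2 of 8 were lower and 1 was higher. G6pdx, which feeds NADPH into the system, was lowest (-1.79), and Ggt7, a member of the gamma-glutamyltransferase family, was highest (3.74). The glutathione S-transferases, which join glutathione to electrophiles, were divided, with 4 of 14 higher and 5 lower throughout. Their medians ran from -3.95 for Gstm2 to 2.28 for Gstm5, with a middle value of 0.18.

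The regulators of Nrf2 gave no gene that was higher throughout and 3 of 8 that were lower. Bach1, a repressor of Hmox1, was lowest (median -3.75), and Sqstm1, an autophagy adaptor that binds the Nrf2 inhibitor Keap1, was highest (1.26). Nfe2l2, the gene of Nrf2 itself, had a median of -2.64 and ran from -2.95 to -2.40.

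In haem and iron handling 2 of 5 genes with a value on every array were lower throughout and 0 were higher. Hmox2, the constitutive haem oxygenase, was highest, with a median of 0.68 over 9 arrays and a range from 0.27 to 0.84, all above 0, against -3.002 for Hmox1. Blvrb, a biliverdin reductase, was lowest (-2.44). Among the sources of superoxide and the copper supply 5 of 9 were lower throughout and 0 were higher. Cybb, the catalytic subunit of the phagocyte NADPH oxidase, was lowest (-3.67), an upper limit because its Cy-5 signal was not well above background on any array, and Nox1, highest by its median (0.16), was not well above background in either dye. Ccs, which loads copper into Sod1, had a median of -0.28, against 1.31 for Sod1.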

How the data were processed

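Hemibrain RNA of 10 mice was measured in Cy-5 on Agilent mouse arrays with 45018 spots. Per the file headers, Feature Extraction 10.10.1.1 made the spot values. The deposited processed signals are intensities on a linear scale, background-subtracted and dye-normalized per dye. The deposited log ratio of a spot is on the log10 scale, Cy-5 divided by Cy-3. The authors also deposited a table with 1 log2 ratio per probe and array, in the same direction, whose column medians were -0.05 to 0.10 and which equalled the log2 ratio of the processed signals within 0.01 for 99.8% of probes on the lowest array (C10-434). The deposited log10 ratio, turned to log2, equalled it within 0.01 for 100% of the spots well above background in both dyes and for 90.6% of all spots.

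The log2 ratio of the processed signals was computed per spot without 1639 control spots, spots with an outlier flag (104 to 630 per array) were set aside, and spots were averaged per probe. To be well above background, a probe needed the flag on a share of 0.5 or more of its spots. No spot was saturated. The number of arrays limits the precision. Of 41174 probes, 27198 (66.1%) were named through RefSeq accessions (GRCm38.p6, names only), and the brightest probe, by the mean over dyes and arrays, stood for its gene. Slides came from the file headers and were compared with limma 3.58.1 (lmFit and eBayes) in R 4.3.3 over probes with at least 2 values per slide, tested on simulated data. Tables were made in Python 3.11.15 with pandas 2.3.3 and numpy 2.4.6, and figures with matplotlib 3.10.9.

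Members and gene lists were chosen with earlier results of these data known. Named were all members, the highest and lowest gene by median of each pathway and marker list, and any pathway gene past the slide test. Nfe2l2, Ccs and Hba-a1 fall outside the rule, and the choice to name them came after seeing their values. Of 67 pathway genes 1 was not matched, and of the marker genes 3. Another 2 of the marker genes fixed beforehand are not reported here, and their lists were used without them. The alternatives were loess (span 0.3), centring on the array median, the deposited table, normexp with an offset of 50 on median signals, subtraction with a floor of 0.5 and the same offset (loess followed both), all probes of a gene, flagged spots kept, bright probes, and arrays left out.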

Additional observations from a re-analysis of the deposited data

Results flagged for a closer look

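Each of the 12 member probes, and the share of probes above background in each dye, was looked at for an array that lies far from the others by the gap to its nearest neighbour over the whole range (Dixon's limit). Of these 14 measures 3 held such an array, and chance gives about 1 in 20. Gpx4 had a log2 ratio of 0.82 on C10-413, far above the next array. C10-434 had 49.8% of probes well above background in Cy-5 and 61.9% in Cy-3, both far below the next array.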

How the results depend on the processing

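No paired analysis was made, because labels, descriptions and methods disagree on the diet and no array was assigned to one. The median ratios of the 10 members were recomputed under 10 alternatives. That of Cat, -0.14, turned to 0.060 with loess within each array, 0.0175 with normexp and then loess, and 0.0735 with subtraction and then loess, and that of Prdx2, 0.52, turned to -0.18 as the median over all of its probes. Centring, the deposited table, keeping flagged spots and leaving out C10-434, C10-437 or, added after seeing the data, C10-413 turned none of the medians. Another 7 medians, all under normexp or subtraction, moved by more than the spread over the arrays and kept their sign. Ranges moved by more than that spread in 14 cases, 7 of them under normexp. No member was at least 2-fold higher on every array under any of these alternatives. The count of members at least 2-fold lower on every array, 2, was 1 with normexp, where Nqo1 dropped out, and 3 with the deposited table or flagged spots kept, where Prdx1 came in. The count of probes that differed between the slides by limma, 31, was 0 with normexp (1149 at an unadjusted p under 0.05), 1 with subtraction, 71 (13 higher and 58 lower on slide 3) with only bright probes, of which 20206 were tested, and 0 to 18 with 1 array left out in turn. It was 0 without C10-416, C10-417, C10-424, C10-425, C10-434 or C10-435, 2 without C10-415 and 18 without C10-423. The cause was not tested. The smallest adjusted p of a member probe over all of these fits was 0.54. Signal over background limits Sod3, whose range of 3.36 was 1.71 over the 6 arrays measured in both dyes (added after seeing the data; median 1.21), 0.90 with normexp and 1.38 with subtraction, where the offset draws dim ratios towards 0.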
